A study of Mus musculus with 6 samples.

Results

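The dual-specificity MAP kinase phosphatases are enzymes that switch off MAP kinases by removing phosphate from both the threonine and the tyrosine of the activation loop. The transcripts of 10 of them (Dusp1, Dusp2, Dusp4, Dusp5, Dusp6, Dusp7, Dusp8, Dusp10, Dusp14 and Dusp16) were taken by gene symbol from a table of 37411 genes, and all 10 were present and passed the filter on low counts. RNA had been sequenced from primary hippocampal neurons of newborn (P0) CD-1 IGS mice, kept for 16 days in vitro and exposed for 30 min either to 50 µM forskolin or to the same volume of its solvent DMSO. Forskolin, a compound from the root of a Coleus plant, turns on adenylyl cyclase directly, which makes cyclic AMP. Each group had 3 libraries, numbered 1 to 3 for DMSO and 4 to 6 for forskolin. No source used here says whether the libraries of a group came from separate cultures, so the p-values measure the spread between these libraries, which may be technical.

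The MAP kinases ERK, JNK and p38 pass signals from the membrane to the nucleus, and in neurons ERK connects synaptic activity and cyclic AMP to transcription. Many of the phosphatases are themselves immediate early genes, transcribed within minutes of the signal that they later switch off. They differ in place and in target: Dusp1, Dusp2, Dusp4 and Dusp5 encode inducible nuclear enzymes, Dusp6 and Dusp7 cytoplasmic enzymes selective for ERK, Dusp8, Dusp10 and Dusp16 enzymes that prefer JNK and p38, and Dusp14 a small enzyme that lacks the kinase-binding domain of the others.

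Library depth ranged from 28342764 to 47548379 counts. Mitochondrial ribosomal RNA took 14.0 to 23.7% of the counts under DMSO and 26.9 to 33.3% under forskolin, ranges that did not overlap. The libraries did not separate by treatment over all genes: library 6 correlated best with DMSO library 3 (Pearson r = 0.983 across 16233 tested genes, which are not independent replicates). The preparations were mixed cultures. All 14 neuron markers were detected in every library, with a summed level of 4422 to 5654 CPM (counts divided by the scaled library size, in the usual unit) under DMSO and 3356 to 5294 CPM under forskolin. The 12 astrocyte markers summed to 7198 to 7931 CPM under DMSO and 7892, 8726 and 7115 CPM in libraries 4, 5 and 6. Single astrocyte markers moved in both directions, with 6 of the 12 fitted changes positive. The 12 microglia markers summed to 23.0 to 35.3 CPM under DMSO, 227 CPM in library 4, 377 CPM in library 5 and 25.1 CPM in library 6. Of 12 markers of the oligodendrocyte lineage, the sum was 824 to 917 CPM under DMSO and 1113, 1602 and 649 CPM in libraries 4, 5 and 6. The 8 vascular and mural markers summed to 63.0 to 112 CPM under DMSO and 60.2 to 157 CPM under forskolin. Of these 8, only Cldn5, a marker of brain endothelium, had any library at 0. It held 2 counts in library 4 and 0 in each other library of either group. In bulk RNA, fewer cells of a type and less RNA per cell cannot be told apart, and this applies to each value below.

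The sequence upstream of the start site is shown first for 4 genes: Dusp1 and Dusp7, the members that passed the test; Dusp5, another member above DMSO in every forskolin library; and Dusp8, which shares the cyclic AMP response element with Dusp1 but was lower in every forskolin library. RefSeq (build GRCm38.p6) gave a promoter for 9 of the 10 members; Dusp4 was not matched. Each stretch runs 5′ to 3′ from base 250 to base 51 before the start site given in RefSeq's promoter table. That site is not always the outermost end of the gene: the stretches of Dusp8, Dusp14 and Dusp16 lie inside the gene's RefSeq limits, and the last bases of that of Dusp7 do. Capitals mark the palindrome TGACGTCA, the full cyclic AMP response element bound by CREB; its shorter form TGACG on either strand, which is also contained in the palindrome; and the CArG box bound by serum response factor.
Dusp1 (chr17:26508523-26508722, minus strand): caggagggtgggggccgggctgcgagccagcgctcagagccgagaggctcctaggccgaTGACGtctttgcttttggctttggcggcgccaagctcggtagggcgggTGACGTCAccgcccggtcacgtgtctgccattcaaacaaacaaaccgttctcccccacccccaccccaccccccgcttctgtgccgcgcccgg
Dusp8 (chr7:142095335-142095534, minus strand): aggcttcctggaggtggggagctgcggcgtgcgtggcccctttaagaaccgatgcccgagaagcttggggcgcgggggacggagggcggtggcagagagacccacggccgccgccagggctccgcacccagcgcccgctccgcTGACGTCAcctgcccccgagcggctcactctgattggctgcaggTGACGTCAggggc
Dusp5 (chr19:53528895-53529094, plus strand): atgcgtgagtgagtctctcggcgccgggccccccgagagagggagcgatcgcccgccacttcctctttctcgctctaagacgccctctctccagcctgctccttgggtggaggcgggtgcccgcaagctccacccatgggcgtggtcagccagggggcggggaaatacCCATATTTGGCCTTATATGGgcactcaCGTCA
Dusp7 (chr9:106368382-106368581, plus strand): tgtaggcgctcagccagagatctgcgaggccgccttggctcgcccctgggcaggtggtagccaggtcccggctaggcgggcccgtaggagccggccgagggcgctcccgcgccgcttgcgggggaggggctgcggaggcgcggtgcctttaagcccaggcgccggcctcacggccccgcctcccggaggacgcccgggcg

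The window searched on both strands was 300 bases, with the last 50 after the start site. TGACGTCA was found in 2 of the 9 members, once in Dusp1 (bases 143 to 136 before the start) and in Dusp8 at bases 107 to 100 and again at 63 to 56, and in 1.79% of the 32851 mouse promoter windows of that length. TGACG was found in 5 of the 9 members (Dusp1, Dusp2, Dusp5, Dusp8 and Dusp16) and in 20.8% of all windows. Dusp5 carried a pair of adjacent CArG boxes, a motif present in 1.63% of all windows. GCGNGGGCG, the site of the Egr factors, was found in Dusp2 and Dusp16 and in 5.55% of windows. TGANTCA, the AP-1 site (7.81% of windows), and TATAAA (13.6%) were in no member's window, and Dusp6, Dusp7, Dusp10 and Dusp14 held none of the 6 motifs; of the stretch before the start of Dusp14, 100 bases belong to an exon annotated in GENCODE M21. These matches describe letters in a window and not bound sites. Of the 2 members that carry TGACGTCA, Dusp1 passed the test, higher, and Dusp8 did not pass.

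Dusp1 was the phosphatase with the largest response to forskolin, 5.74-fold higher, and the only member that passed the test upward. Dusp7 was the only one that passed it downward, at 1.74-fold lower. Of the 10 members, then, edgeR's quasi-likelihood test called 1 higher and 1 lower at a Benjamini-Hochberg adjusted p-value under 0.05, where it called 1.51% of the 16233 genes tested (0.172% higher and 1.34% lower). The members' median log2 fold change was 0.24, against 0.02 for all tested genes, and 8 of 10 fitted changes were positive. In 4 members the groups did not overlap in CPM, with Dusp1 and Dusp5 higher and Dusp7 and Dusp8 lower; 26.5% of all tested genes had such separate groups (10.3% higher and 16.2% lower). Before adjustment, 5 members had a p-value under 0.05, as did 22.3% of all genes.

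**Figure D1:**
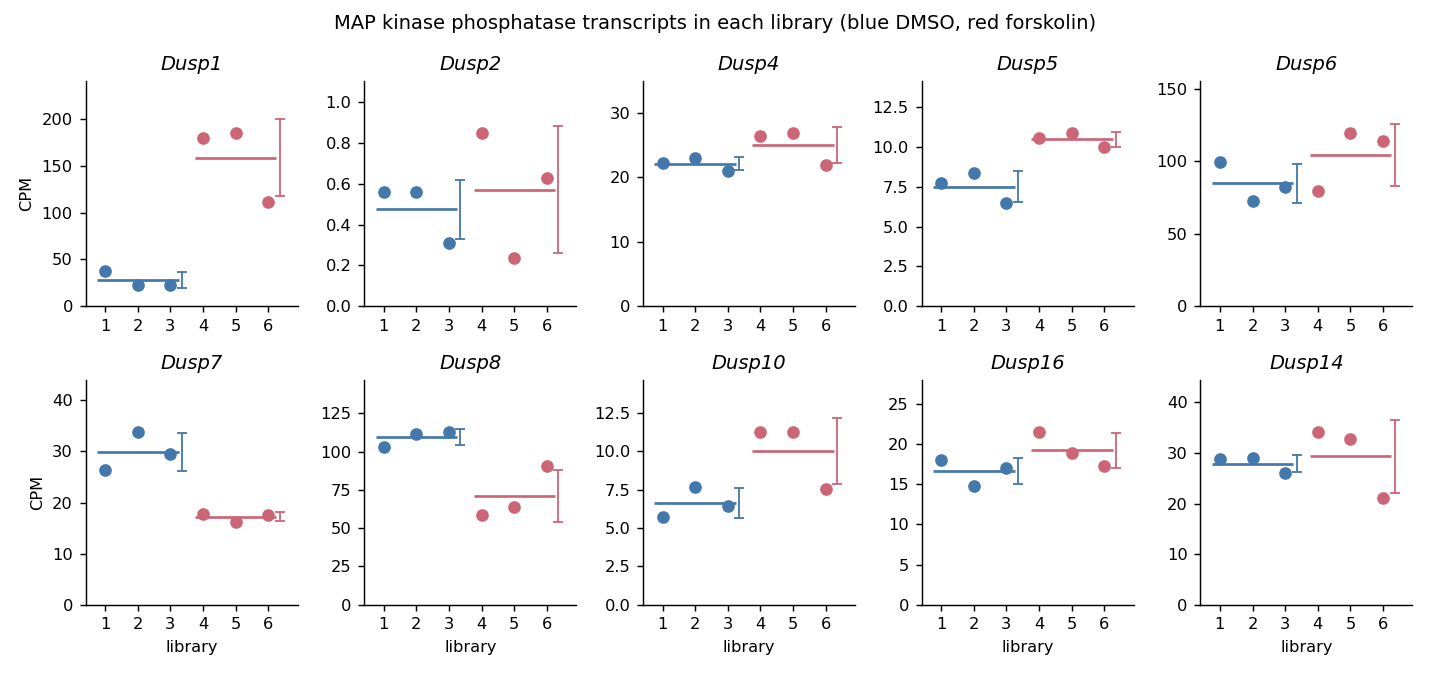
CPM of each member in the 6 libraries; the y axis of each panel starts at 0 and has its own scale, horizontal lines are group means and vertical bars are 1 SD (n = 3). Dusp1 was at 22.5 to 37.9 CPM under DMSO and 112 to 185 CPM under forskolin, whereas Dusp7 was at 26.3 to 33.9 and 16.3 to 17.8 CPM.

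Among the inducible nuclear enzymes, Dusp1 dephosphorylates p38, JNK and ERK and is a classical immediate early gene. It is a protein-coding gene at chr17:26505591-26508472 (GRCm38.p6). Under DMSO, libraries 1, 2 and 3 held 37.9, 22.9 and 22.5 CPM of it; under forskolin, libraries 4, 5 and 6 held 180.2, 185 and 112 CPM. Every forskolin library lay well above every DMSO library, with library 1 the highest of the controls and library 6 the lowest of the treated. The means were 27.8 ± 8.75 and 159 ± 41.0 CPM (SD, n = 3), and the log2 fold change was 2.52 ± 0.29 (SE; edgeR adjusted p = 0.0276).

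The rise of Dusp1 was present in each treated library. Against the DMSO mean its log2 ratio was 2.70, 2.74 and 2.01 in libraries 4, 5 and 6, and library 6 is the treated library whose microglia markers, at 25.1 CPM in sum, stayed within the DMSO range. With libraries 4 and 5 left out, an alternative chosen after seeing the data in which the single treated library is assumed to vary like the controls, the log2 fold change was 2.05 ± 0.29 (edgeR adjusted p = 0.0521, with 0.0354% of genes called higher). Removing each library's trend on GC content gave 2.68 ± 0.27 (edgeR adjusted p = 0.0729), in a fit that called 0 genes (0%), while 1947 had an unadjusted p-value below 0.05. The call was lost without any one of libraries 1, 2, 3, 4 or 5 (log2 fold change 2.38 to 2.83, edgeR adjusted p from 0.0968 to 0.242), fits in which no gene at all was called; without library 6 it held at 2.70 (adjusted p = 0.00286). Dusp1 also stands in the authors' deposited table, which holds 132 genes; there it was the only member, with a log2 fold change of 2.47 and an adjusted p-value of 7.26e-25. In the GENCODE M21 annotation the Dusp1 gene has wider limits (chr17:26505590-26562128) than the locus given above. It overlaps Ergic1, a gene on the opposite strand, by 640 bases. On the same strand it overlaps AC122252.1 (1853 bases) and AC122252.4 (227 bases), for which no counts were given. Gm8225, a pseudogene on the opposite strand (956 bases), held 1 to 4 counts per library. The effect of these overlaps was not tested. Ergic1 held 4188, 4416 and 4752 counts under DMSO and 4882, 3880 and 4468 under forskolin. Dusp1 went from 1212, 699 and 801 counts to 8483, 6311 and 3748. These counts are not scaled to library depth.

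Dusp5, whose product is a nuclear phosphatase specific to ERK, was the other member with every forskolin library above every control. It held 7.71, 8.34 and 6.48 CPM under DMSO and 10.6, 10.9 and 9.97 CPM under forskolin. The treated libraries lay close together, library 6 included, but the difference was small: the log2 fold change of 0.48 ± 0.17 (SE) had an edgeR adjusted p-value of 0.173. After removal of the GC trend it was 0.77 ± 0.14 (adjusted p = 0.191), and with library 6 also left out 0.73 ± 0.14 (edgeR adjusted p = 0.0125).

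Dusp4, an inducible nuclear phosphatase of ERK and JNK, did not pass the test. It held 22.2, 23.0 and 21.0 CPM in the controls and 26.4, 26.8 and 21.8 CPM in the treated libraries. Libraries 4 and 5 were above the controls and library 6 was among them (log2 fold change 0.18 ± 0.13, edgeR adjusted p = 0.426). Removing the GC trend put Dusp4 at 0.43 ± 0.10 (edgeR adjusted p = 0.273), and with library 6 also left out 0.46 ± 0.09 (edgeR adjusted p = 0.0125). Dusp2, best known from activated immune cells, was close to the limit of detection with 18, 17 and 11 counts under DMSO and 40, 8 and 21 under forskolin. Its highest and its lowest library were both treated ones, and they were the libraries with high microglia markers, 4 and 5 (log2 fold change 0.28 ± 0.52, edgeR adjusted p = 0.769). No change of Dusp2 was detected, and whether depth or the spread between libraries limited this was not tested.

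Of the ERK-selective cytoplasmic pair, Dusp7 fell and Dusp6 did not pass the test; the difference between them was not tested. Dusp7 is a protein-coding gene at chr9:106368560-106375724. Its control libraries 1, 2 and 3 held 26.3, 33.9 and 29.5 CPM, and its treated libraries 4, 5 and 6 held 17.8, 16.3 and 17.6 CPM. All treated libraries were below all controls and lay within a narrow band, with means of 29.9 ± 3.78 and 17.2 ± 0.824 CPM (SD, n = 3). The log2 fold change was -0.80 ± 0.13 (SE; edgeR adjusted p = 0.0458). Library 6 shared the decrease, with a log2 ratio to the DMSO mean of -0.76 beside -0.75 and -0.88 in libraries 4 and 5.

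The call on Dusp7 was close to the threshold. Its transcript is rich in GC (57.6%, against a median of 49.5% over the genes tested), and once that trend had been removed its change was -0.45 ± 0.15 (edgeR adjusted p = 0.353); with library 6 left out as well it was -0.56 ± 0.13 (edgeR adjusted p = 0.0220). It was called by DESeq2 (adjusted p = 1.33e-04, where 11.9% of genes were called) but not by limma-voom (0.0517, 1.34%), and, as for Dusp1, leaving out any one of libraries 1 to 5 ended the edgeR call (adjusted p from 0.149 to 0.342). With the mitochondrially encoded genes left out, whose ribosomal RNA was higher in every forskolin library, the change of Dusp7 was -0.81 ± 0.14 (edgeR adjusted p = 0.0505).

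Dusp6, an ERK phosphatase commonly used as a readout of ERK activity, was the most abundant member under DMSO per kb of transcript (30.3 CPM per kb), though Dusp8 was higher in CPM. It held 99.4, 72.7 and 82.2 CPM under DMSO and 79.8, 120 and 114 CPM under forskolin. Libraries 5 and 6 were above all controls and library 4 lay among them, so the groups overlapped. The log2 fold change was 0.30 ± 0.19 (SE; edgeR adjusted p = 0.385), and no alternative called it (adjusted p from 0.186 to 0.732).

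Of the JNK and p38 phosphatases, Dusp8, an enzyme abundant in brain, had the lower levels under forskolin. It held 103, 111 and 113 CPM in the controls and 58.6, 63.7 and 90.5 CPM in the treated libraries. All treated libraries were below all controls, but library 6 lay much nearer to them than libraries 4 and 5 did. The log2 fold change was -0.62 ± 0.18 (SE; edgeR adjusted p = 0.134). DESeq2 called it on the same libraries (adjusted p = 0.0447), as did edgeR without library 6 (log2 fold change -0.85, adjusted p = 0.00339). Its transcript has 58.8% GC, and with the GC trend removed the change was -0.17 ± 0.25 (edgeR adjusted p = 0.737). After that correction and with libraries 4 and 5 left out, its direction turned to 0.33 (edgeR adjusted p = 0.571). The 14 neuron markers summed to 3356, 3666 and 5294 CPM in libraries 4, 5 and 6, so that libraries 4 and 5 were below the DMSO range and library 6 was within it. The markers did not share 1 direction: 6 were lower in every forskolin library than in every control (16.2% of all genes were), 1 passed edgeR's test, lower (1.34% of all genes), and 4 had a positive fitted change. DESeq2 called 4 lower and 0 higher (11.9% of all genes in either direction), and edgeR without library 6 called 8 lower and 0 higher (33.6% of all genes). Their part in the level of Dusp8 was not tested.

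Dusp10, which acts on p38 and JNK, showed the opposite order. It held 5.75, 7.68 and 6.45 CPM under DMSO and 11.3, 11.2 and 7.53 CPM under forskolin. Libraries 4 and 5 were above the controls, and library 6 lay just under the highest of them (log2 fold change 0.60 ± 0.23, edgeR adjusted p = 0.194). Without library 6 it was called (log2 fold change 0.75, edgeR adjusted p = 0.0201), and without libraries 4 and 5 the log2 fold change was 0.22 (adjusted p = 0.669). The summed microglia markers and the summed oligodendrocyte lineage markers given above were also higher in libraries 4 and 5 than in any control, and not in library 6. Of the microglia markers 11 were tested, and all 11 had a positive fitted change (median 4.26 on the log2 scale); 0 passed edgeR's test with all libraries, 10 were below 0.05 before adjustment, DESeq2 called 10 higher, and edgeR without library 6 called 11 higher (33.6% of all genes in either direction). Within the lineage list, 7 of 12 fitted changes were positive, 3 markers were lower in every forskolin library than in every control (16.2% of all genes were), and 0 passed edgeR's test. Before adjustment 9 were below 0.05, as were 22.3% of all genes, and DESeq2 called 5 higher and 2 lower, where it called 11.9% of all genes. The part of these markers in the level of Dusp10 was not tested. Dusp16, a JNK phosphatase that shuttles between nucleus and cytoplasm, held 18.0, 14.8 and 17.0 CPM under DMSO and 21.5, 18.8 and 17.2 CPM under forskolin, with library 6 inside the control range (log2 fold change 0.21 ± 0.15, edgeR adjusted p = 0.426).

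Dusp14, the small atypical enzyme, was split between the treated libraries. Its level was 28.8, 29.0 and 26.0 CPM under DMSO and 34.2, 32.8 and 21.1 CPM under forskolin. Libraries 4 and 5 lay above every control and library 6 below every control (log2 fold change 0.07 ± 0.20, edgeR adjusted p = 0.846). In the fit that omits library 6 and the GC trend, Dusp14 was at 0.33 (edgeR adjusted p = 0.0291).

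**Figure D2:**
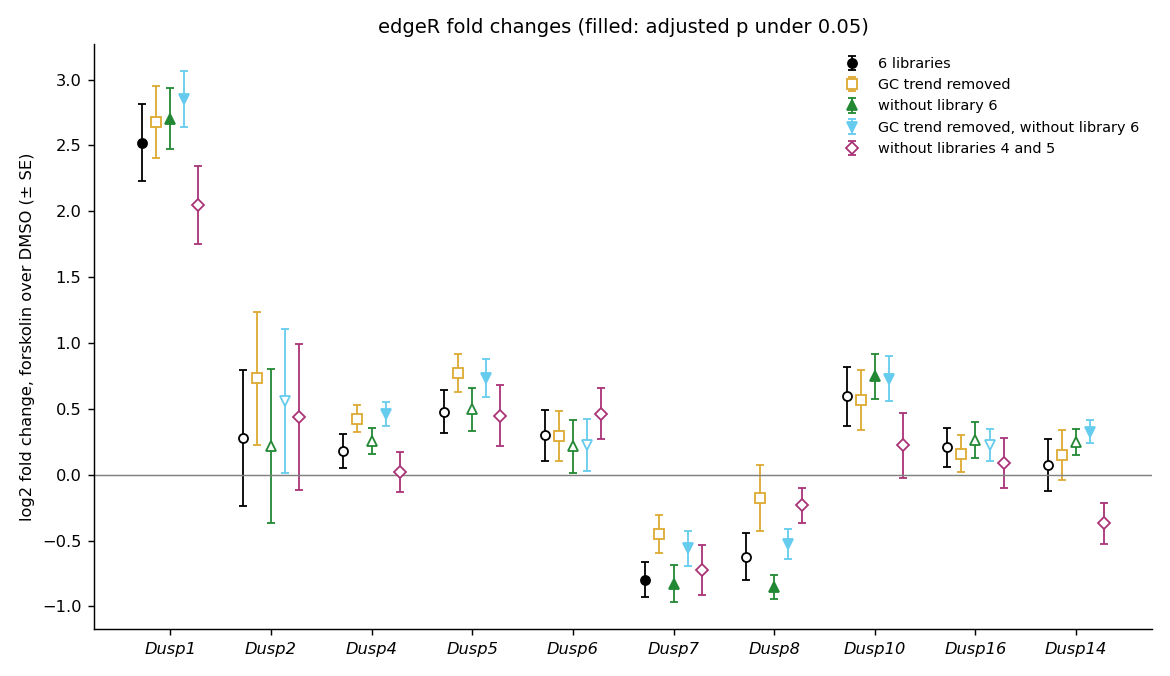
Log2 fold change of each member, forskolin over DMSO, with its standard error, from edgeR fits of all 6 libraries and of 4 alternatives; filled symbols have an adjusted p-value under 0.05. Dusp1 lies between 2.05 and 2.85 in all 5 fits, and Dusp8 goes from -0.85 without library 6 to -0.17 with the GC trend removed.

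The number of members past the threshold depended on which treated libraries were used. Without library 6, edgeR called 2 higher (Dusp1 and Dusp10) and 2 lower (Dusp7 and Dusp8), while 33.6% of all genes were called. With the GC trend also removed it called 5 higher (Dusp1, Dusp4, Dusp5, Dusp10 and Dusp14) and 2 lower (Dusp7 and Dusp8), against 16% of genes higher and 16.1% lower. Dusp6 and Dusp16 were called in none of the 20 alternatives, and Dusp2 in none of the 19 that gave it a value, among which DESeq2 gave no adjusted p-value.

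**Figure D3:**
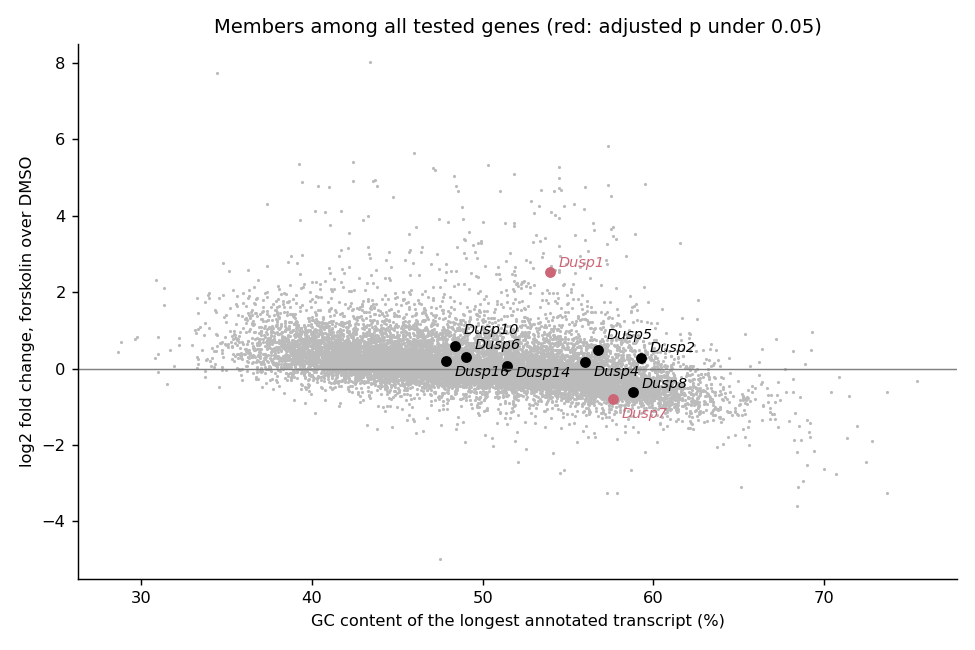
Log2 fold change against the GC content of the longest annotated transcript for tested genes (grey) and for the 10 members. Dusp7 (57.6% GC) and Dusp8 (58.8% GC) lie with the GC-rich genes below 0, whereas Dusp2 (59.2%), the most GC-rich member, Dusp5 (56.7%) and Dusp1 (54.0%) lie above it. The sign of Dusp2 is not settled: it held 8 to 40 counts, its change was 0.28 ± 0.52 (SE), and 2 alternatives reversed it.

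Levels were compared between members as CPM per kb of the longest annotated transcript, so that long genes do not count for more. Under DMSO the order of the means was Dusp6 (30.3 CPM per kb), Dusp8 (22.7), Dusp14 (17.8), Dusp1 (12), Dusp7 (9.31), Dusp4 (8.05), Dusp16 (3.25), Dusp5 (3.04), Dusp10 (2.37) and Dusp2 (0.294). The neighbours Dusp1 and Dusp7, Dusp7 and Dusp4, Dusp16 and Dusp5, and Dusp5 and Dusp10 overlapped between libraries in this order, and Dusp14 and Dusp1 were barely apart (lowest 16.6 against highest 16.4). Under forskolin Dusp1 stood first, at 68.8 ± 17.7 CPM per kb (SD, n = 3), and its lowest library (48.4) was above the highest library of Dusp6 (42.8). By the means, Dusp8 went from the second place to the fourth and Dusp7 from the fifth to the sixth. Under forskolin, however, Dusp14 in the third place and Dusp8 overlapped between libraries (lowest 13.4 against highest 18.8), as did Dusp5 and Dusp16, and Dusp16 and Dusp10. Dusp2 was last in both groups. With coding length in place of transcript length the DMSO order was the same, and under forskolin only Dusp5 and Dusp16 exchanged places.

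Summed over the 10 members, the level was 105 to 117 CPM per kb under DMSO and 169, 184 and 145 CPM per kb in libraries 4, 5 and 6. Dusp1 made up 13.98, 9.37 and 9.30% of this sum in DMSO libraries 1, 2 and 3, and 46.2, 43.5 and 33.3% in the forskolin libraries. The other 9 members together held 94.8 to 101 CPM per kb under DMSO and 90.8 to 104 under forskolin, and these ranges overlapped. The plot of levels per length shows this shift.

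**Figure D4:**
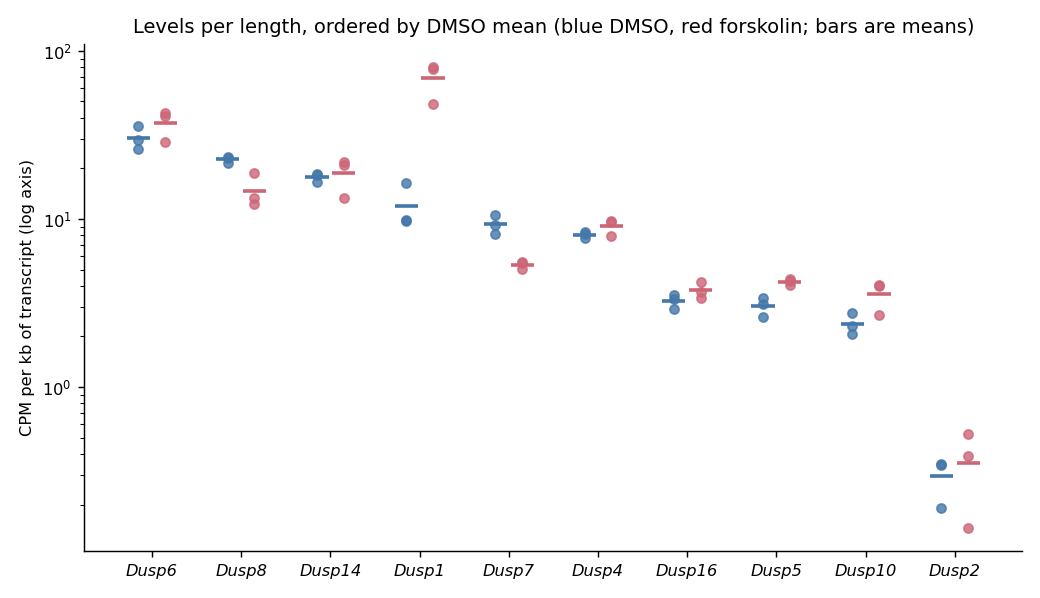
CPM per kb of transcript (log axis) for each member in each library, ordered by the DMSO mean; short bars are group means (n = 3). Dusp1 goes from a mean of 12 to 68.8 CPM per kb, past Dusp6 (30.3 to 37.3), while Dusp2 stays under 0.53 in every library.

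The genes whose log2 CPM followed Dusp1 most closely over the 6 libraries, among 12997 genes that are no members, were Btg2, an antiproliferative early response gene, Fos and Maff, with Pearson coefficients of 0.998, 0.997 and 0.996. These values describe 6 libraries that share depth, composition and treatment, and they were picked as the highest of many. Btg2 held 88.9, 46.8 and 47.8 CPM under DMSO and 360, 374 and 238 CPM under forskolin (log2 fold change 2.40 ± 0.32, edgeR adjusted p = 0.0314). Like Dusp1, it was highest among the controls in library 1 and lowest among the treated in library 6. Dusp7 was followed most closely by Zfp282 (r = 0.995), Vstm2l (0.995) and Zfp358 (0.995). Vstm2l fell from 27.0, 37.3 and 30.4 CPM to 13.4, 10.3 and 11.7 CPM (log2 fold change -1.42 ± 0.17, edgeR adjusted p = 0.0297), while Zfp282 (-0.58, adjusted p = 0.0705) and Zfp358 (-0.67, adjusted p = 0.0652) did not pass.

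**Figure D5:**
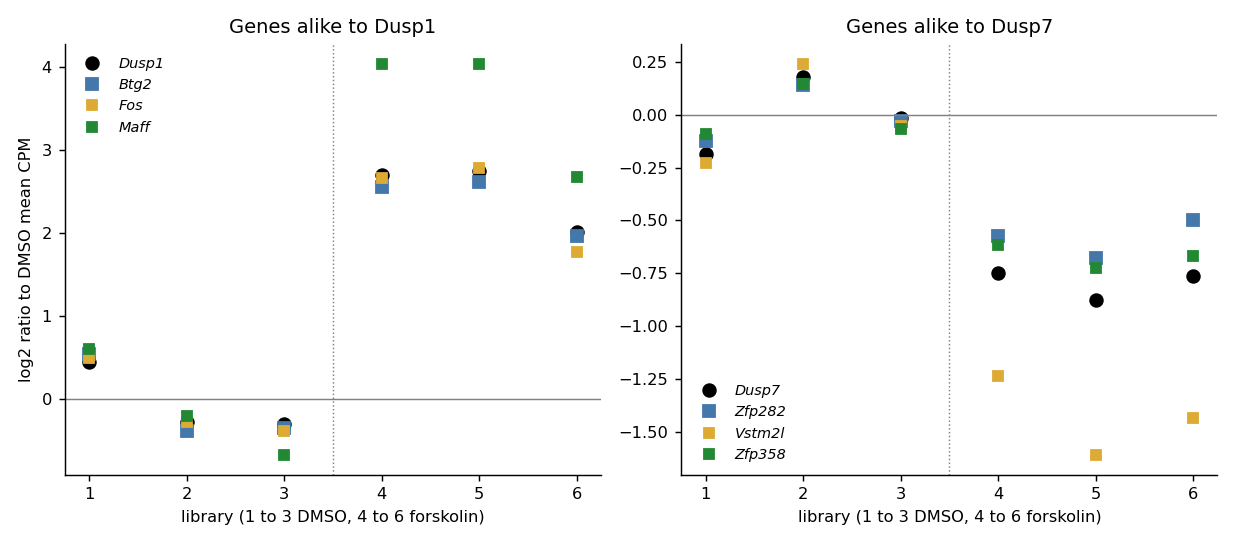
Log2 ratio to the DMSO mean in each library for Dusp1 and Dusp7 (black circles) and the 3 genes with the highest correlation to each (coloured squares). Dusp1 is at 2.70, 2.74 and 2.01 in libraries 4, 5 and 6, and Dusp7 at -0.75, -0.88 and -0.76.

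The other phosphatases and the kinases of the pathway were read from the same fit. Of 20 other dual-specificity phosphatases, 17 were tested and 0 passed edgeR's test (1.51% of all genes did), with 3 at an unadjusted p-value under 0.05 (22.3% of all genes); DESeq2 called 1, lower (11.9% of all genes in either direction). The smallest p-values were those of Dusp28 (8.21, 8.79 and 8.08 CPM under DMSO and 5.84, 5.96 and 5.58 under forskolin, log2 fold change -0.53, edgeR adjusted p = 0.142) and Dusp27 (-1.57, adjusted p = 0.168). The median of these 17 was -0.06, and without library 6 edgeR called 3 of the list higher and 3 lower, near the share of all genes called in that fit (33.6%). With the GC trend also removed it called 3 higher and 1 lower, beside 16% and 16.1% of all genes. Dusp9, the remaining cytoplasmic ERK phosphatase of the classical group, was too low to test, with 1 to 10 counts in each library. Among the tyrosine phosphatases that bind MAP kinases through a kinase interaction motif, Ptpn5, a striatum-enriched phosphatase, was at -0.54 on the log2 scale (edgeR adjusted p = 0.213) and Ptprr at -0.18 (0.653).

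The call counts for the MAP kinases depended on library 6. With all libraries, 0 of 13 tested passed edgeR's test, near the 1.51% of all genes. DESeq2 called 0 of them (11.9% of all genes), and 2 were below 0.05 before adjustment (22.3% of all genes). Without library 6, edgeR called 1 higher and 6 lower, where it called 33.6% of all genes, and with the GC trend also removed 1 higher and 7 lower, beside 16% and 16.1% of all genes. The same shares of all genes apply to the kinase lists that follow. The 2 with all libraries were Mapk4 (log2 fold change -0.39, edgeR adjusted p = 0.144) and Mapk7, which encodes ERK5 (-0.48, 0.192). Of 7 MAP kinase kinases, 0 passed, 1 had an unadjusted p-value under 0.05 and DESeq2 called 0; the smallest p-values were those of Map2k7, a JNK activator (-0.31, edgeR adjusted p = 0.171), and Map2k2, an ERK activator (-0.52, 0.254). Of 19 tested Raf and MAP kinase kinase kinases, 1 fell: Map3k10, a mixed-lineage kinase upstream of JNK, went from 109, 117 and 102 CPM to 49.9, 50.6 and 44.6 CPM (log2 fold change -1.18 ± 0.11, edgeR adjusted p = 0.0204; GC content 64.9%). Map3k12 had the next smallest p-value (-0.39, edgeR adjusted p = 0.189). Of 10 tested kinases activated by MAP kinases, 0 passed, 1 had an unadjusted p-value below 0.05 and DESeq2 called 1, lower; Rps6ka4 was at -0.59 (edgeR adjusted p = 0.0687) and Rps6ka6 at 0.56 (0.277). Without library 6, edgeR called 3 MAP kinase kinases lower and 0 higher, 2 of the Raf and MAP kinase kinase kinases higher and 5 lower, and 1 of the kinases activated by MAP kinases higher and 1 lower. With the GC trend also removed, it called 0 MAP kinase kinases higher and 2 lower. In that fit 6 of the Raf and MAP kinase kinase kinases were called higher and 4 lower. Of the kinases activated by MAP kinases, 4 were called higher and 0 lower.

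Of 20 transcripts known to be induced through ERK, 3 rose and 0 fell in edgeR's test, beside 0.172% of all genes higher and 1.34% lower, and the median log2 fold change was 0.24 against 0.02 for all tested genes. The 3 were the transcription factor genes Fosb (log2 fold change 3.38, edgeR adjusted p = 0.0402), Fos (2.46, 0.0376) and Egr2 (1.74, 0.0431). Egr2 held 10.2, 5.51 and 6.37 CPM under DMSO and 20.9, 30.6 and 22.1 CPM under forskolin. In 5 of the 20 the groups did not overlap with forskolin higher, and in 2, Fosl1 and Egr3, with forskolin lower (10.3% and 16.2% of all genes). DESeq2 called 5 higher, where it called 11.9% of all genes in either direction. Without library 6, edgeR called 7 higher and 1 lower (33.6% of all genes in either direction), and with the GC trend also removed 9 higher and 2 lower (16% and 16.1%). The rise of Dusp1, at 2.52, was of the size of that of Fos.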

How the data were processed

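The authors deposited whole numbers per gene symbol, 1 column per library, used here as counts; Salmon estimates need not be whole, and whether the authors rounded them is not given in the sources used here. Salmon, DESeq and GRCm38 are named in the submitters' processing notes, and the annotation, strand setting and versions are not given in the sources used here. Per the file headers, the authors' deposited table of 132 genes gives per gene a mean normalised count (signal), the log2 fold change and its standard error, a statistic (score), and p-values before and after adjustment; only the fold change and adjusted p-value were used.

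Tools were DESeq2 1.42.0, limma 3.58.1 and edgeR 4.0.16 in R 4.3.3. The filterByExpr function (a minimum count of 10 and a total of 15) kept 16233 genes; TMM scaling, glmQLFit and glmQLFTest with the group as the only term, and Benjamini-Hochberg adjustment over all tested genes followed, with a threshold of 0.05. Standard errors are the absolute log2 fold change over the square root of F. CPM are counts over TMM-scaled library sizes; correlations used log2 CPM with a prior count of 2. GC content and length are those of the longest GENCODE M21 transcript of each symbol, and 97.1% of tested genes had a value. The GC trend was a lowess curve (span 0.3) per library, entered as an offset. The fits were also run on simulated counts with a smaller spread between libraries than these data. The common biological coefficient of variation of the data was 0.29. The simulated counts had no GC trend and no deviating library, so they do not show how well the fits perform here. For counts this high, the spread between libraries sets the precision; for Dusp2, counting error adds to it.

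The members, gene lists, tests and alternatives were chosen with earlier results of these data known. All members are named; in each pathway list, up to 4 genes past the threshold, or where fewer than 2 pass the 2 with the smallest p-values; for Dusp1 and Dusp7, the members with the smallest p-values in each direction, the 3 genes with the highest correlation, leaving out genes named only by a Gm, Rik or transcript identifier and those under a mean of 1 CPM. Dusp9, Cldn5, Fosl1, Egr3 and Ergic1 were chosen after their values were seen.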

Additional observations from a re-analysis of the deposited data

How the results depend on the processing

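No paired analysis was possible because the labels number the libraries 1 to 6 across both groups. The main counts were 245 genes, 1 member higher and 1 lower. All genes past the threshold numbered 1775 with DESeq2, 6795 with limma-voom and library quality weights (library 6 had a weight of 0.156), 137 with RLE factors, 102 with upper-quartile factors, 0 with the GC trend removed, 5432 with that and library 6 left out, 94 with libraries 4 and 5 left out and 32 with that and the GC trend removed. Members called higher were 3 with quality weights, 0 with the GC trend removed, 5 with that and library 6 left out, and 0 with libraries 4 and 5 left out, with or without the GC trend. Members called lower were 2 with DESeq2, 2 with quality weights, 2 with the GC trend removed and library 6 left out, and 0 with limma-voom, RLE factors, upper-quartile factors, no low-count filter, mitochondrial genes left out, the GC trend removed, and libraries 4 and 5 left out with or without the GC trend. Leaving out 1 library gave 0 to 5698 genes, 0 to 2 members higher and 0 to 2 lower; only without library 6 was any gene called, and without each of the others 3 to 5 members and 1945 to 3216 of all genes had an unadjusted edgeR p-value under 0.05.

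Signs turned for 4 members. Dusp2 was at -0.13 with quality weights and from -0.14 to 0.67 with 1 library left out. Dusp14 was at -0.037 with library size alone, from -0.054 to 0.25 with 1 library left out (both turned without library 4), -0.37 without libraries 4 and 5, and -0.34 with the GC trend removed as well. In that last fit Dusp8 was at 0.33 and Dusp16 at -0.012. Dusp1, Dusp4, Dusp5, Dusp6, Dusp7 and Dusp10 kept their direction in all 20 alternatives, Dusp1 between 2.05 and 2.85. The cause of these differences was not tested; fits without a library have fewer samples. The fits without libraries 4 and 5 were chosen after seeing the data. A mean CPM of at least 1 left Dusp2 out.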

Other observations

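Transcripts of the pathway that were high in libraries 4 and 5 and not in library 6 included Map3k8, an ERK-activating kinase of immune signalling, at 1.47, 1.18 and 1.51 CPM under DMSO and 3.93, 4.35 and 1.19 CPM under forskolin (edgeR adjusted p = 0.213). Ptpn7, a phosphatase of blood cells that was too low to test, held 0.125 to 0.196 CPM under DMSO and 0.765, 2.82 and 0.0896 CPM under forskolin. Pathway genes not described here as immune were also high in libraries 4 and 5 only. Map3k19 held 19.0 to 25.6 CPM under DMSO and 53.8, 44.2 and 17.6 CPM in libraries 4, 5 and 6. Mapk15 held 3.56 to 6.71 CPM and then 11.2, 8.08 and 1.61 CPM, and Rps6ka1 5.44 to 6.93 CPM and then 10.4, 11.4 and 4.69 CPM. Map3k8, Ptpn7, Map3k19, Mapk15 and Rps6ka1 were picked with their values in view. The source of this pattern was not tested. Among the microglia markers, Cx3cr1 held 0.477 to 0.656 CPM under DMSO and 22.2, 46.3 and 1.16 CPM in libraries 4, 5 and 6, and C1qa 0.757 to 1.81 CPM and then 40.0, 63.4 and 1.02 CPM.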
